A study of Mus musculus with 40 samples.

Results

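The interferon-stimulated genes are genes whose transcription is switched on by type I interferon. A list of 37 mouse genes of this kind was described, taken as a list of gene symbols that was drawn up with earlier results of these data known. All 37 matched a gene identifier of the deposited table, which held 54331 identifiers, and all 37 were among the 21367 genes tested (those reaching 10 in 4 or more libraries). The annotation gave 36 of them as protein-coding and Mx2 as a polymorphic pseudogene.

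Male mice of strain C57BL6 gave cerebellar RNA under 4 genotype labels (WT, INDY, CSB, DKO) and 2 diets, standard (SD) and ketogenic (KD). There were 40 libraries: WT had 4 on each diet, INDY had 6 on each, CSB had 6 on SD and 5 on KD, and DKO had 4 on SD and 5 on KD. INDY is a name of the citrate transporter Slc13a5, and CSB is the transcription-coupled repair protein encoded by Ercc6. The labels used here give no allele, age or feeding time, and they do not say that libraries came from separate animals, so p-values measure the spread between libraries. Slc13a5 averaged 112.9 to 134.5 in the WT and CSB groups and 0 to 0.187 in the INDY and DKO groups, where 19 of 21 libraries listed it at 0. Ercc6 averaged 794 to 937 in the WT and INDY groups and 590 to 645 in the CSB and DKO groups, so its transcript was lower and still present in the latter.

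Type I interferons are secreted when a cell senses viral or misplaced nucleic acid. They bind the receptor chains Ifnar1 and Ifnar2, whose kinases phosphorylate signal transducers such as Stat2. Stat2 and Irf9 are part of a complex that binds the interferon-stimulated response element in promoters and turns on genes whose products block viral RNA and proteins, tag proteins with Isg15, or feed back on the signal. In the brain, microglia, astrocytes, endothelium and neurons can all respond, and a low level of these transcripts is present without infection.

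The promoters were searched for the interferon-stimulated response element. RefSeq promoters of mouse build GRCm38.p6, windows of 300 bases from 250 before to 50 after a gene's start, were at hand for 27 of the 37 genes. The core, GAAA followed by any 2 bases and GAAA again, was searched on both strands, with overlapping matches kept. It lay in a window of 15 of those 27 genes (55.6%) and of 1079 of all 27025 genes with a window (3.99%). Those 15 were Ifit1, Ifit3, Isg15, Stat2, Oas1a, Oas3, Rsad2, Bst2, Ifitm3, Ifih1, Lgals9, Gbp2, Gbp3, Trim30a and Eif2ak2. Ifit2, Ifi35, Ifi44, Irf7, Irf9, Oasl2, Xaf1, Parp12, Lgals3bp, Sp100, Herc6 and Cmpk2 held no match in these windows. Ifi27, Ifi27l2a, Oas2, Mx2, Usp18, Dhx58, Rtp4, Parp9, Parp14 and Zbp1 were not matched. Sites of 6 genes described with their values are printed 5′ to 3′ on the gene's strand, with 20 flanking bases on each side and the match in capitals. They were chosen to set Bst2, which rose with the CSB genotype, beside Gbp3, Lgals9, Ifit3 and Ifit1, whose differences lay above 0 without passing the test, and Oas3, whose difference lay below 0. Where the match starts with T, the element lies on the other strand.
Bst2, chr8:71537573-71537622, minus strand: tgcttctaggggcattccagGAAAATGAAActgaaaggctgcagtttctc
Gbp3, chr3:142559979-142560028, plus strand: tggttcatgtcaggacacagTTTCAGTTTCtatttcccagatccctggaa
Lgals9, chr11:78984950-78984999, minus strand: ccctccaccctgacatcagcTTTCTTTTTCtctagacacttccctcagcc
Ifit3, chr19:34583387-34583436, plus strand: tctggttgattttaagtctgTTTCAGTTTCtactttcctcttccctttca
Ifit1, chr19:34640765-34640814, plus strand: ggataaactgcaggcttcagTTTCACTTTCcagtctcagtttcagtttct
Oas3, chr5:120777705-120777754, minus strand: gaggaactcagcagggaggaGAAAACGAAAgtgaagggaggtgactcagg
The match in capitals started 130 bases before the RefSeq start in Bst2, 45 in Gbp3, 55 in Lgals9, 122 in Ifit3, 104 in Ifit1 and 75 in Oas3. All but Oas3 held a further match in the window that is not in capitals. This further match started 124 bases before the start in Bst2, 39 in Gbp3, 156 in Ifit3 and 85 in Ifit1, and 15 after it in Lgals9. In Ifit3 and Lgals9 it lies outside the printed bases. A match is a string of letters and not a measured binding site.

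The values are read counts estimated and normalised by the submitters, and sequencing depth cannot be read from them. Sums of values ran from 23736702 to 32247186 per library. Markers of granule cells, the main cerebellar neurons, averaged 7.06 on the log2(value + 1) scale in DKO SD 1 and 9.91 to 12.2 in the 39 other libraries, and 18 forebrain genes averaged 10.7 in DKO SD 1 and up to 8.84 elsewhere. DKO SD 1 therefore went against its tissue label in part. Forebrain levels exceeded 7 in 12 libraries and 6.5 in 21. Leaving out those above 6.5 left 1 library each in WT KD (28), CSB KD (13) and DKO SD (36), 2 in INDY SD (10 and 32), 3 each in INDY KD and DKO KD and 4 each in WT SD and CSB SD. Leaving out those above 7 left 1 in WT KD, 2 in DKO SD, 3 in CSB KD and 4 or more in the other groups. In such fits a lone library is assumed to vary like the other groups, and medians that involve it are values of that library. The library labelled WT KD 25 had an Ercc6 value of 633, the lowest of the 20 WT and INDY libraries and within the range of the CSB and DKO libraries (382.5 to 876). Results are given with and without these libraries where they bear on a result. Liver transcripts were also uneven. Their level was the highest of its group in INDY SD 10 (8.81), INDY KD 22 (8.20) and CSB SD 6 (9.25), beside a median of 3.63 over all 40 libraries.

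The mean log2(value + 1) over the 37 genes was higher in the CSB and DKO libraries than in the WT and INDY libraries, with overlap. It was 7.01 ± 0.22 (SD, n = 20, from 6.58 to 7.44) in CSB and DKO and 6.74 ± 0.29 (n = 20, from 6.33 to 7.31) in WT and INDY. Among controls it was 6.75 ± 0.20 (n = 4) in WT on SD, 6.75 ± 0.26 (n = 4) in WT on KD, 6.76 ± 0.43 (n = 6) in INDY on SD and 6.70 ± 0.28 (n = 6) in INDY on KD. With the CSB genotype it was 7.02 ± 0.16 (n = 6) in CSB on SD, 7.07 ± 0.23 (n = 5) on KD, 7.02 ± 0.36 (n = 4) in DKO on SD and 6.94 ± 0.20 (n = 5) on KD. The 4 group means with the CSB genotype all lay above the 4 without it. No p is attached to this mean, because the list was put together with results of these data known. In bulk tissue a lower level can come from fewer cells of a type or from less RNA per cell, which cannot be told apart.

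**Figure D1:**
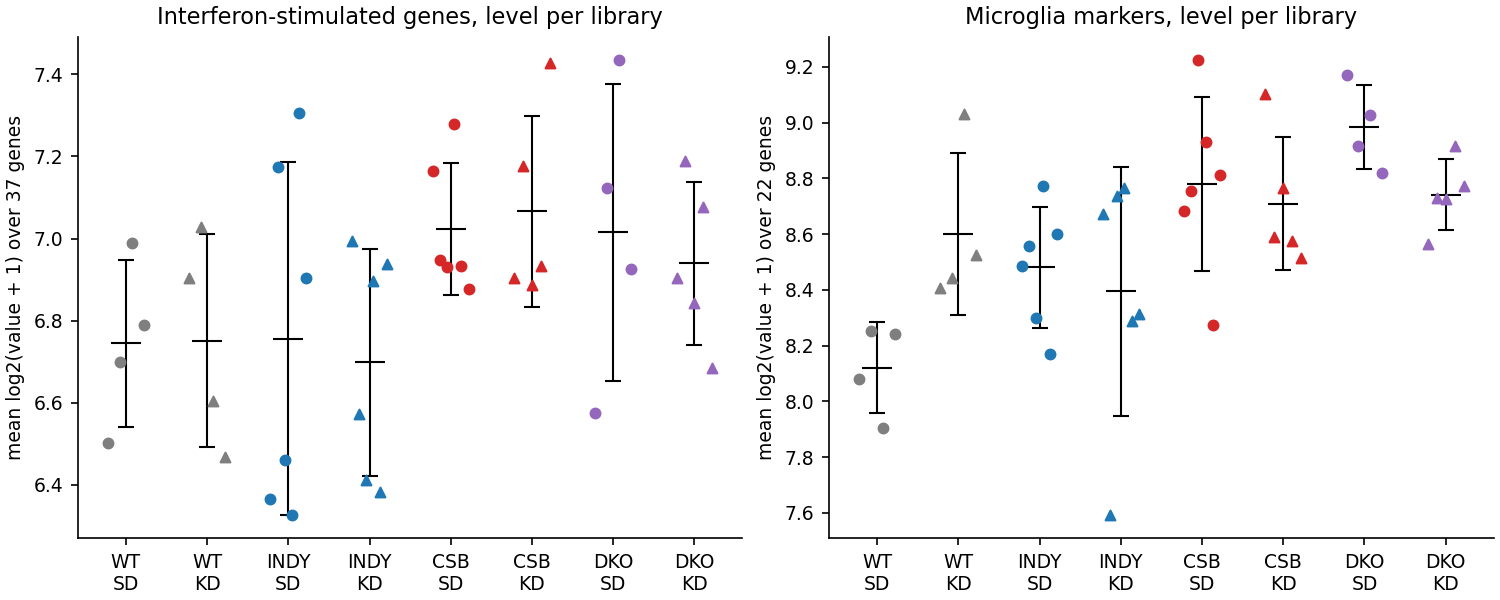
Left, the mean log2(value + 1) over the 37 interferon-stimulated genes in each of the 40 libraries by group (circles SD, triangles KD). Right, the same mean over 22 microglia marker genes. Bars show the mean and SD of each group. The 4 group means with the CSB genotype lie between 6.94 and 7.07 on the left, above the 4 without it at 6.70 to 6.76, and the ranges overlap.

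The genes moved together from library to library within groups. In INDY SD, libraries 9, 11 and 14 had levels of 6.37, 6.46 and 6.33, and libraries 10, 32 and 33 had 7.18, 7.31 and 6.90. All 37 genes lay above their group mean in INDY SD 32, and 2 did so in each of INDY SD 9 and INDY SD 14. CSB KD 44 was above its group mean for 33 genes and held the highest of all 40 values for 9, and DKO SD 35 was above for 32 and highest for 7. DKO SD 1 was above its group mean for 3 genes, and INDY SD 14 held the lowest of all 40 values for 8. The range within INDY SD was wider than the difference between the pooled genotypes. The SD of a gene within groups on the log2 scale was smallest for Eif2ak2 (0.17) and Parp12 (0.19) and largest for Zbp1 (1.03) and Ifi44 (0.67).

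**Figure D2:**
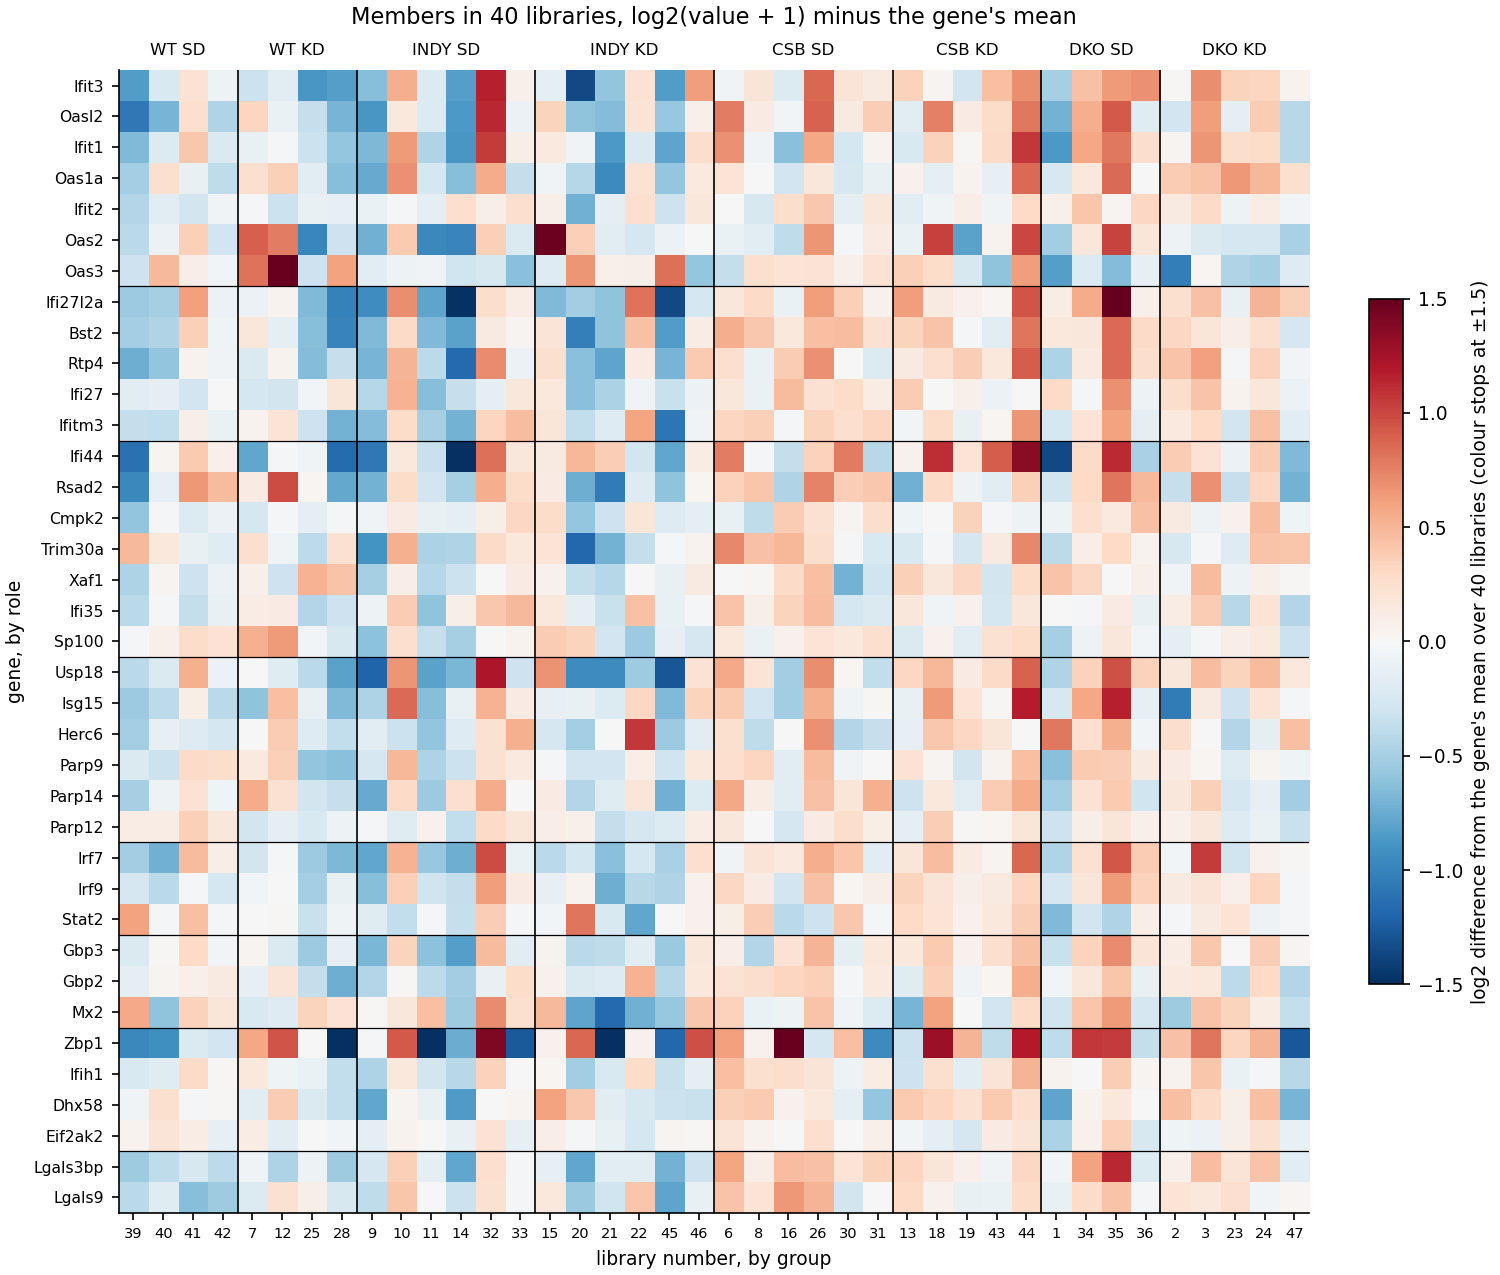
Each of the 37 genes (rows, by role) in each of the 40 libraries (columns, by group) as log2(value + 1) minus the gene's mean over all libraries, with the colour scale stopping at ±1.5. Columns such as INDY SD 32, CSB KD 44 and DKO SD 35 are red for most genes, and INDY SD 9 and 14 are blue for most.

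The comparison of the CSB genotype, CSB and DKO minus WT and INDY with the groups of both diets weighted equally, asked which genes differ where Ercc6 was lowered. Lgals3bp, Bst2 and Ifi27l2a rose, and 34 of the 37 genes had a difference above 0. The median difference of the 37 was 0.25 on the log2 scale, beside 0.01 over all 21367 genes, of which 52.1% lay above 0. In limma with Benjamini-Hochberg adjustment over all genes, 3 of 37 were called, all higher, beside 170 of all genes (0.796%), of which 121 were higher (0.566%). At an unadjusted p under 0.05 there were 21 of the 37 (56.8%), 20 of them higher, beside 18.8% of all genes in either direction and 7.05% higher. The exception was Oas3. Microglia markers differed with the same genotype (8 of 22 rose, median 0.38; given further on). The count of 3 was 1 without WT SD 39, WT SD 40 or WT KD 28, beside 128, 130 and 123 of all genes. It was 5 without INDY SD 10, 32 or 33, beside 162, 146 and 276, and 6 without DKO SD 1, beside 249. It was 8 without DKO KD 23 (959 of all genes, 4.49%) and 10 without INDY KD 22 (1378, 6.45%). INDY KD 22 had the highest liver level of its group (8.20), while in the DKO KD group that was library 24 and not 23. Whether liver RNA bears on these counts was not tested by leaving out single libraries. The median was 0.20 to 0.31 over all alternatives tried, with 30 to 36 genes above 0.

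**Figure D3:**
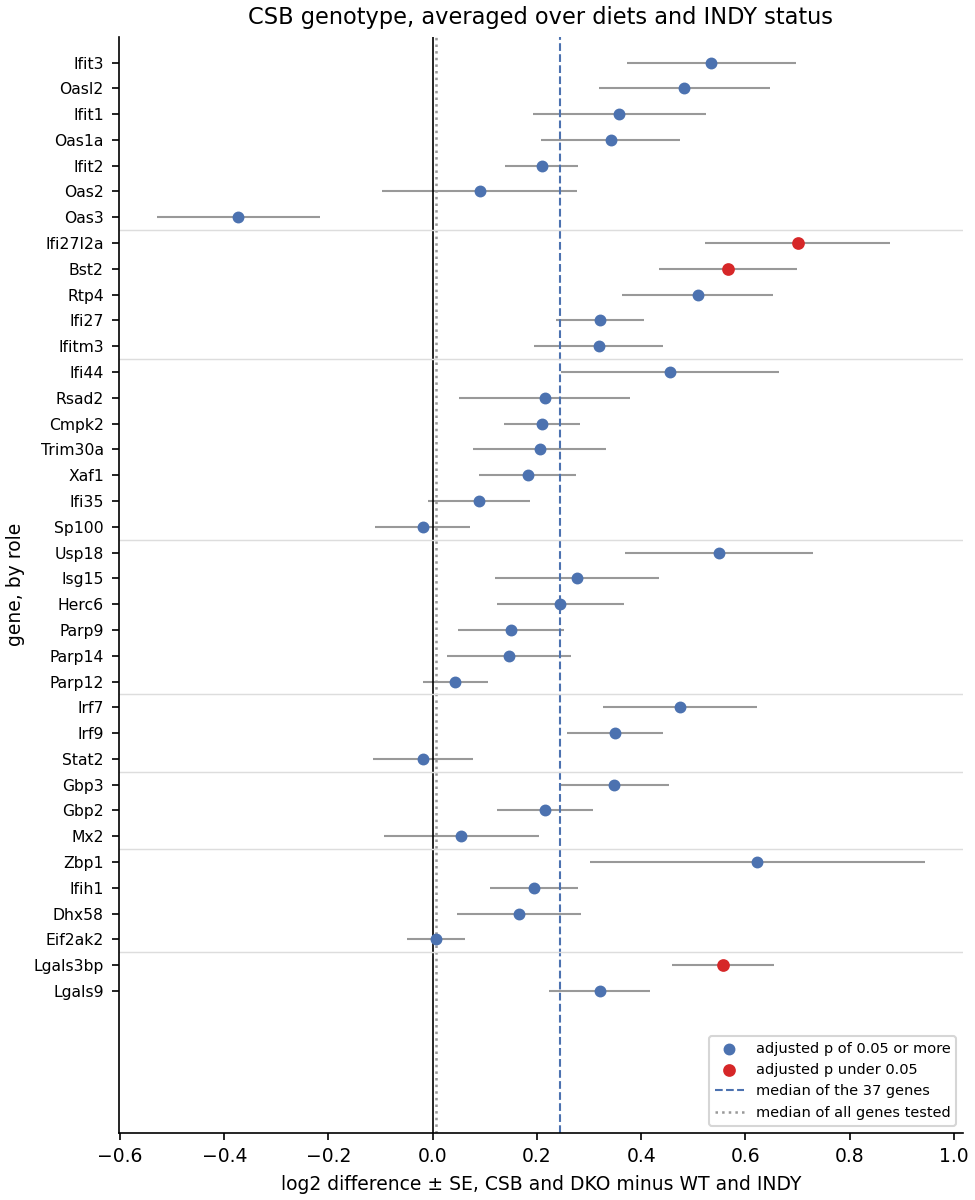
Log2 difference between the CSB and DKO libraries and the WT and INDY libraries for each of the 37 genes, with its standard error, grouped by role. The dashed line is the median of the 37 (0.25) and the dotted line the median of all genes tested (0.01). Red points are the 3 genes with an adjusted p under 0.05, and Oas3 stands apart at -0.37.

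Among the lectins, Lgals3bp encodes a secreted glycoprotein that binds galectins and is made by many cells under interferon. It read 287, 320, 353 and 318 in WT SD and 400, 302, 394 and 288 in WT KD. It ran from 242 through a median of 396 to 535 in INDY SD and from 242 through 353 to 382 in INDY KD. In CSB SD it ran from 445 through 547 to 630, and in CSB KD it read 522, 471, 440, 400 and 517. It was less even in the DKO groups, with 405, 632, 915 and 359.5 in DKO SD and 438, 575, 476, 559 and 369 in DKO KD. All 20 CSB and DKO libraries lay above the median of the WT and INDY libraries (352), and 7 lay above the highest of these, INDY SD 10. The difference was 0.56 (SE 0.098, 1.47-fold, adjusted p = 0.000795 in limma), and it stayed under 0.05 in all 50 alternatives, with adjusted p from 0.000154 to 0.0322. The highest of those p came with the level of microglia markers as a covariate, where the difference was 0.45. Lgals9, which encodes galectin 9, ran from 62.4 through 86.0 to 119 in CSB and DKO and from 43.4 through 66.2 to 102 in WT and INDY. Of the CSB and DKO libraries 19 were above the median of the others, with a difference of 0.32 (SE 0.097, adjusted p = 0.0971), which did not pass.

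Of the 5 genes for membrane and small hydrophobic proteins, 2 rose and all 5 had an unadjusted p under 0.05. Bst2 encodes tetherin, which holds budding virus particles on the cell surface. Its values were 45.8, 47.9, 84.1 and 62.8 in WT SD and 73.8, 59.9, 41.7 and 32.3 in WT KD. They ran from 37.2 through 54.5 to 80.04 in INDY SD and from 31.9 through 57.0 to 89.7 in INDY KD. In CSB SD they ran from 73.5 through 88.6 to 96.1, in CSB KD they were 82.7, 89.0, 64.7, 58.6 and 115, in DKO SD 73.4, 73.8, 119 and 80.55 and in DKO KD 81.4, 74.9, 69.9, 78.6 and 54.9. All 20 libraries with the CSB genotype were above the median of the others (53.9), and 10 of the WT and INDY libraries lay under the lowest of them. The difference was 0.57 (SE 0.13, 1.48-fold, adjusted p = 0.0234). It did not pass without WT SD 39 (adjusted p = 0.0532), WT SD 40 (0.051) or WT KD 28 (0.0573), with the microglia level as a covariate (difference 0.53, adjusted p = 0.0665) or without the 21 libraries of high forebrain level (0.0561), in a range of 0.00555 to 0.0665.

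Ifi27l2a and Ifi27 encode small hydrophobic proteins of 1 family and lie next to each other on chromosome 12 (GENCODE M21 on GRCm38, 103442167 to 103443680 and 103434211 to 103440239). Ifi27l2a read 30.5, 31.7, 69.6 and 42.5 in WT SD, 42.2, 46.8, 28.2 and 21.8 in WT KD, and from 15.5 through 37.3 to 73.6 in INDY SD. It ran from 17 through 30.2 to 80.2 in INDY KD, from 41.9 through 53.0 to 70.2 in CSB SD, and read 70.3, 49.6, 47.0, 46.1 and 87.4 in CSB KD. In DKO SD it read 48.6, 66.6, 137 and 47.4, and in DKO KD 53.3, 61.4, 41.8, 64.4 and 58.2. No CSB or DKO library fell under 41.8, while 12 of the 20 WT and INDY libraries did. The difference of 0.70 (SE 0.18, 1.62-fold) was the largest of the 37, and its adjusted p of 0.0479 lay just under the threshold. It passed in 19 of 50 alternatives, with adjusted p from 0.0105 to 0.0956, and was lost without any 1 of 27 of the 40 libraries. It held without any 1 of the other 13, which were WT SD 41, WT KD 12, INDY SD 10, 32 and 33, INDY KD 22 and 46, CSB SD 16, CSB KD 18 and 43, DKO SD 1 and 36 and DKO KD 23. Ifi27 ran from 539 through 635 to 929 in CSB and DKO and from 370 through 518 to 826 in WT and INDY, with all 20 of the former above the median of the latter. Its difference was 0.32 (SE 0.085, adjusted p = 0.0579). Rtp4, a Golgi protein with antiviral activity, ran from 52.3 through 86.6 to 136 with the CSB genotype and from 31.8 through 59.3 to 119 without it, a difference of 0.51 (SE 0.15, adjusted p = 0.0893). Ifitm3, which blocks virus entry from endosomes, had a difference of 0.32 (adjusted p = 0.155).

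**Figure D4:**
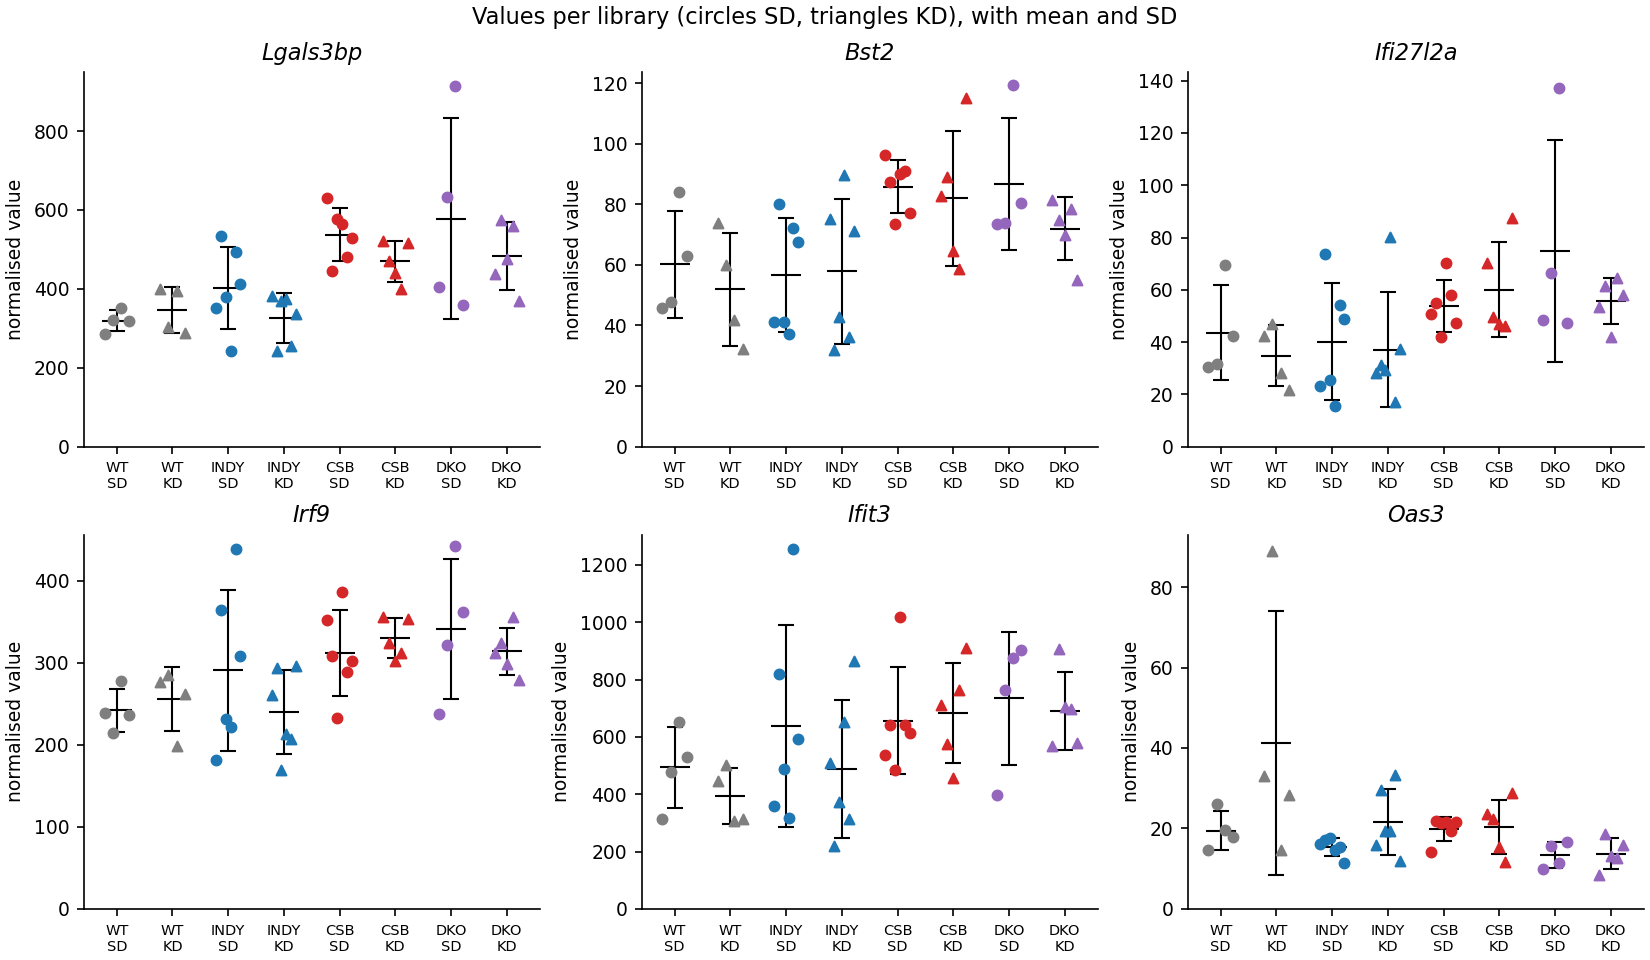
Normalised values of Lgals3bp, Bst2, Ifi27l2a, Irf9, Ifit3 and Oas3 in each library by group (circles SD, triangles KD), with mean and SD. Lgals3bp reaches 915 in DKO SD 35 and no CSB or DKO library reads under 359.5, Ifi27l2a stays at or above 41.8 in the CSB and DKO groups, and Oas3 is highest, at 89.0, in WT KD 12.

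The IFIT and OAS family genes encode proteins that bind foreign RNA or make the messenger that activates RNase L. Of these 7, 6 had differences above 0 and 0 were called, and 6 had an unadjusted p under 0.05, Oas3 in the other direction. Ifit3, a partner of Ifit1 in binding viral RNA ends, ran from 397 through 671 to 1017 with the CSB genotype and from 218 through 483 to 1254 without it, the highest value being that of INDY SD 32. Its difference was 0.53 (adjusted p = 0.0977), and those of Oasl2, Ifit1, Oas1a, Ifit2 and Oas2 were 0.48, 0.36, 0.34, 0.21 and 0.09. Oas3 was the lowest of all 37, with a difference of -0.37 (unadjusted p = 0.0226, adjusted p = 0.19). It ran from 8.40 through 16.3 to 28.7 in CSB and DKO and from 11.5 through 17.7 to 89.0 in WT and INDY, and the value of 89.0 came from WT KD 12. The next highest WT or INDY value was 33.2, in INDY KD 45, so the medians were close and 1 library lay far above the rest. WT KD 12 also read 2984 for S100a8, a neutrophil transcript whose median over the 40 libraries was 28.3, and whether the 2 go together was not tested.

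Of the 3 genes for signalling and transcription factors, Irf9 and Irf7 had an unadjusted p under 0.05 and Stat2 did not. Irf9, the DNA-binding subunit of the interferon-activated complex, ran from 233 through 317 to 443 with the CSB genotype and from 170 through 250 to 438 without it. Of the CSB and DKO libraries 18 lay above the median of the others, and the difference was 0.35 (SE 0.092, adjusted p = 0.0575). It passed in 11 of 50 alternatives, with adjusted p from 0.0066 to 0.147. Irf7, which amplifies interferon production, had a difference of 0.47 (adjusted p = 0.0981), and Stat2 had -0.02 (adjusted p = 0.942). With the microglia level as a covariate Irf9 (0.53, adjusted p = 0.0066), Irf7 (0.67, adjusted p = 0.0307) and Stat2 (0.34, adjusted p = 0.0131) were called beside Lgals3bp, so the calls of this comparison depend on that covariate.

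None of the 20 genes in the other 4 roles was called, and 19 of the 20 were above 0. Of the GTPases, Gbp3 ran from 130 through 200 to 290 with the CSB genotype and from 99.1 through 157.5 to 245 without it, a difference of 0.35 (adjusted p = 0.0971). Gbp2 had a difference of 0.21 and Mx2, of the Mx family of antiviral GTPases, 0.05. Of the genes of Isg15 conjugation and the PARP family, Usp18, the protease that removes Isg15 and dampens the receptor, had 0.55 (adjusted p = 0.106). Isg15 itself, a ubiquitin-like modifier, had 0.28, the ligase Herc6 0.25, Parp9 0.15, Parp14 0.15 and Parp12 0.04. Of the sensors, Zbp1, which binds Z-form nucleic acid, had the second largest difference of the 37 (0.62) and the widest error (SE 0.32, adjusted p = 0.29), at values from 0.395 to 25.8. Ifih1, a sensor of long double-stranded RNA, had 0.19, Dhx58 0.17 and the kinase Eif2ak2 0.01. Of the other effectors, Ifi44 had 0.46, Rsad2, which makes an antiviral nucleotide, 0.21, its neighbour Cmpk2 0.21, Trim30a 0.21, Xaf1 0.18, Ifi35 0.09 and the nuclear body protein Sp100 -0.02. A p that misses the threshold does not show that these genes were alike in the genotypes.

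The CSB difference could be read in 4 comparisons that share no library. In CSB against WT it was read on SD and on KD, and in DKO against INDY on SD and on KD. Of the 37 genes, 23 (62.2%) were higher in all 4, beside 11.0% of all genes, and 0 were higher in none, beside 15.0%. A further 8 were higher in 3, 4 in 2, and Mx2 and Oas3 in 1. The list was drawn up with results of these data known, and its genes moved together within libraries. They are therefore not 37 separate readings, and these counts are a description, as are those of the CSB average. The median differences were 0.29, 0.27, 0.26 and 0.24 in the order given. In each of these comparisons 0 of the 37 were called by limma, beside 29 (0.136%), 1 (0.00468%), 13 (0.0608%) and 21 (0.0983%) of all genes. At an unadjusted p under 0.05 the counts were 6, 12, 5 and 7 of the 37, beside 7.88%, 8.23%, 6.16% and 8.34% of all genes. Lgals3bp differed by 0.74, 0.45, 0.47 and 0.57, Bst2 by 0.54, 0.68, 0.64 and 0.40, and Ifi27l2a by 0.36, 0.79, 0.93 and 0.72. Irf9 was as even, at 0.35, 0.38, 0.26 and 0.41, while Lgals9 went from 0.69 in CSB against WT on SD to 0.12 on KD, and Gbp3 from 0.06 to 0.47. Oas3 was at 0.04, -0.75, -0.21 and -0.58. Without the libraries of forebrain level above 7, or with the 2 groups alone in the fit, Lgals3bp was called in CSB against WT on SD (adjusted p = 0.0347 and 0.0223), beside adjusted p = 0.186 in the fit of all groups. Without those above 7 the median in CSB against WT on KD was 0.60, with 1 WT KD library left. Without those above 6.5 the median in DKO against INDY on SD was -0.26, from DKO SD 36 alone against INDY SD 10 and 32, and Lgals3bp was called in DKO against INDY on KD (0.96, adjusted p = 0.016).

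**Figure D5:**
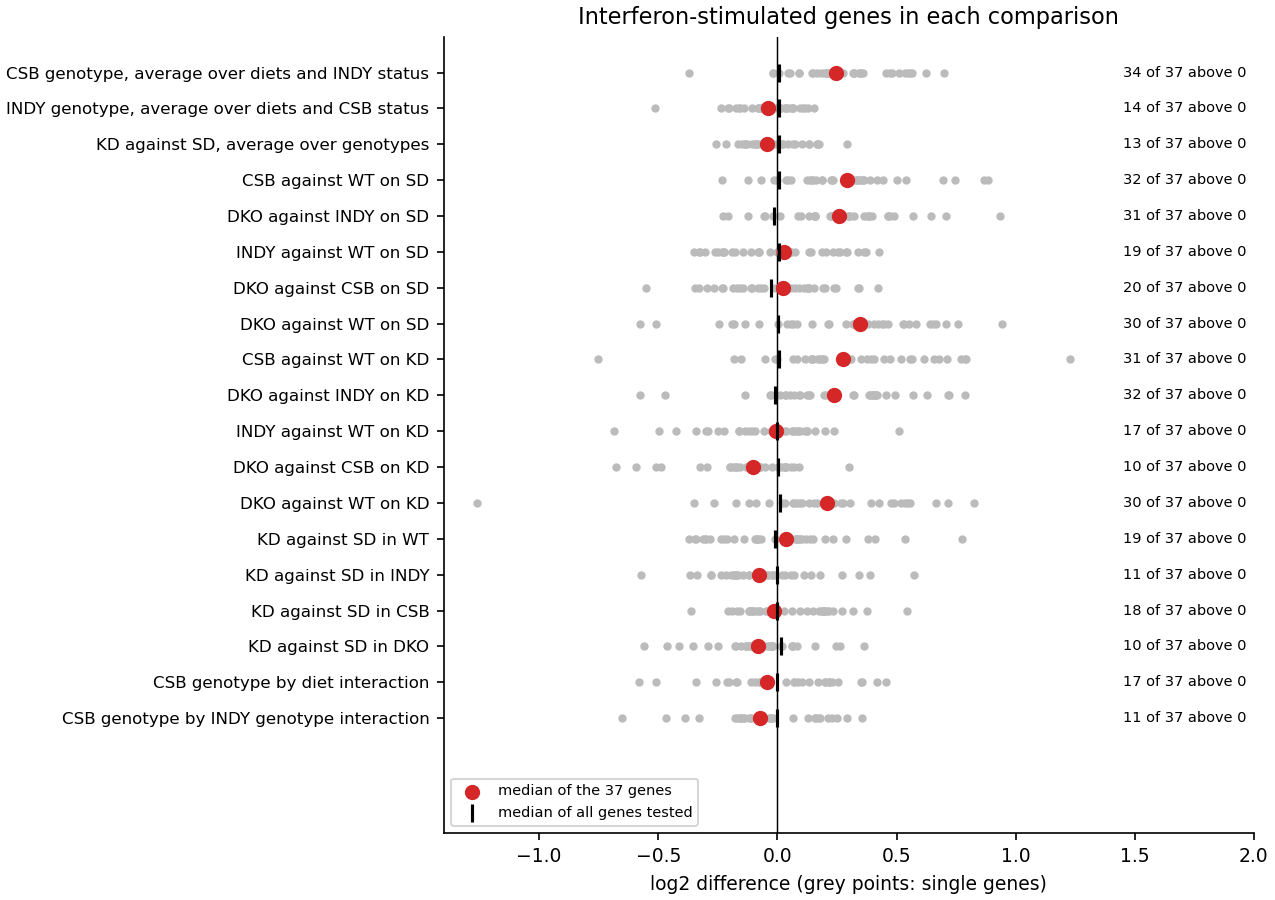
Log2 differences of the 37 genes in each of the 19 comparisons (grey points), with their median (red) and the median of all genes tested (black tick). The right-hand numbers count genes above 0. The medians lie at 0.21 to 0.35 in the comparisons of a CSB genotype with its control and of DKO with WT, and between -0.10 and 0.04 in the others.

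DKO against WT on SD called 1265 of all genes (5.92%), 662 of them higher (3.10%), and 1 of the 37, Lgals3bp. Its difference was 0.76 (SE 0.22, 1.69-fold, adjusted p = 0.042 in limma). Values ran from 287 to 353 in the 4 WT SD libraries and from 359.5 to 915 in the 4 DKO SD libraries. The call held in 7 of 20 alternatives, with adjusted p from 0.0247 to 0.982. It was lost without any 1 of the WT SD libraries and without DKO SD 1, 34 or 35, and with the microglia level as a covariate (difference 0.52). The median of the 37 was 0.35, and 7 (18.9%) had an unadjusted p under 0.05, beside 31.5% of all genes. These 7 included Ifit2 (0.45), Lgals9 (0.58), Cmpk2 (0.42), Herc6 (0.65) and Irf9 (0.46), and Stat2 in the other direction (-0.58, adjusted p = 0.0706). On KD, 0 of the 37 were called in DKO against WT, beside 2 of all genes (0.00936%), with a median of 0.21 and 3 at an unadjusted p under 0.05, beside 6.39%. Oas3 differed most, by -1.26 (adjusted p = 0.335). Without WT KD 25 it fell by 1.64 (adjusted p = 0.0269), with WT KD values of 32.9, 89.0 and 28.3 left.

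In the INDY genotype average, INDY and DKO minus WT and CSB, 0 of the 37 were called by limma beside 3 of all genes (0.014%), and 14 were above 0, with a median of -0.04. At an unadjusted p under 0.05 there were 3, beside 9.38% of all genes: Oas3 (-0.51), the chromatin protein Sp100 (-0.24) and Stat2 (-0.20), all lower. INDY against WT called 0 of the 37 on SD, beside 1 of all genes (0.00468%), and 0 on KD, beside 2 (0.00936%), with medians of 0.03 and 0.00 and 2 and 1 genes at an unadjusted p under 0.05, beside 14.3% and 6.59%. DKO against CSB called 0 on SD, beside 1 of all genes (0.00468%), and 0 on KD, beside 6 (0.0281%). Their medians were 0.02 and -0.10, and 0 of the 37 had an unadjusted p under 0.05 in either, beside 13.6% and 1.73% of all genes. The INDY against WT median on SD was 0.39 without the libraries of forebrain level above 6.5, with INDY SD 10 and 32 left, and on KD 0.28 without those above 7, with WT KD 28 alone left as control.

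The ketogenic diet called 0 of the 37 in any comparison. Averaged over genotypes, limma called 0 of all genes as well (0%), the median of the 37 was -0.04 with 13 above 0, and Parp12 alone had an unadjusted p under 0.05 (-0.13), beside 3.16% of all genes. Within genotypes the medians were 0.04 in WT, -0.08 in INDY, -0.02 in CSB and -0.08 in DKO. All genes called numbered 0, 0, 0 and 1 (0.00468%) in that order, and 2, 1, 0 and 0 of the 37 had an unadjusted p under 0.05, beside 13.4%, 4.63%, 3.43% and 8.11% of all genes. In WT these 2 were Parp12 (-0.37) and Oas3 (0.77, with 89.0 in WT KD 12). Without the libraries of forebrain level above 6.5 the diet median was -0.26 in WT, where WT KD 28 alone was left on KD, and -0.66 in INDY, from 3 KD libraries against INDY SD 10 and 32.

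Whether the CSB difference depended on diet or on the INDY genotype was asked by 2 interaction terms. For the CSB genotype by diet, 0 of the 37 and 0 of all genes (0%) were called, with a median of -0.04 and 1 of the 37 at an unadjusted p under 0.05, beside 9.08%. For the CSB by INDY genotypes, 0 of the 37 and 0 of all genes (0%) were called, with a median of -0.07 and 0 at an unadjusted p under 0.05, beside 3.10%. The Lgals3bp difference was 0.10 lower on KD than on SD with an SE of 0.20, that of Bst2 0.05 lower with an SE of 0.26, and that of Ifi27l2a 0.11 higher with an SE of 0.36. For the CSB by INDY genotypes these were -0.08 for Lgals3bp (SE 0.20), -0.09 for Bst2 (SE 0.26) and 0.25 for Ifi27l2a (SE 0.36). The errors are wide beside these values, which leaves room for dependence in either direction. The CSB by diet median was 0.46 without the libraries of forebrain level above 6.5, with WT KD and CSB KD at 1 library each, and 0.27 without those above 7, with WT KD at 1.

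The pathway around the 37 genes was read from gene lists, with the CSB average as the comparison. The interferons themselves were at or near 0: of 18 type I interferon genes 12 were at 0 in all 40 libraries, Ifnb1 was at 0 in 39, and the highest value of any was 2.26 (Ifnz in INDY KD 45). Of 11 receptor and JAK-STAT genes 0 were called (median 0.07), with Ifnar1 at 0.01 and Ifnar2 at 0.16 (adjusted p = 0.0932). Of 22 genes of nucleic acid sensing and interferon induction 4 rose: Irf8 (0.58), Irf5 (0.53), the RNA receptor Tlr7 (0.60) and Ifi204 (0.58). Irf8, Irf5 and Tlr7 are also expressed by microglia and macrophages. Cgas, the cytosolic DNA sensor, had -0.14 and Tmem173, its adaptor STING, 0.29, and neither passed. Of 16 negative regulators 0 were called (median 0.09).

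Further interferon-stimulated genes lay outside the 37. Of 57 tested, 5 rose and 47 were above 0 (median 0.14). The 5 were Ifi211 (0.97, SE 0.17, adjusted p = 0.00117), the chemokine Cxcl10 (1.03, SE 0.21, adjusted p = 0.00546), Ifi207 (0.90), Tlr2 (0.55) and the GTPase Irgm1 (0.36). Ifi204, Ifi207 and Ifi211 belong to 1 gene cluster whose members are alike in sequence. Of 16 genes of MHC class I and the immunoproteasome 3 rose, B2m (0.48, adjusted p = 5.06e-05), Psmb8 (0.47, adjusted p = 0.00205) and H2-K1 (0.32, adjusted p = 0.0128), and 15 were above 0 (median 0.21).

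Microglia markers differed with the same genotype. Of 22 markers 8 rose, 19 were above 0 and the median was 0.38, led by Cd68 (1.10), Tyrobp (0.93), C1qa (0.75), Trem2 (0.89) and C1qc (0.69). Their mean log2 level ran from 8.27 to 9.23 in CSB and DKO and from 7.59 to 9.03 in WT and INDY, and none of the 22 was at 0 in any library. Of 16 genes of activated microglia 12 rose (median 0.80), led by Itgax (2.15), Cst7 (2.23), Cd68, which is on both lists, Clec7a (1.77) and Gpnmb (1.72). Their level ran from 8.33 to 9.38 against 7.28 to 8.70, with Ccl4 at 0 in at least 1 library. With the microglia level as a covariate 935 of all genes (4.38%) and 4 of the 37 were called, 16 had an unadjusted p under 0.05 and the median was 0.31. Within the 8 groups, the library with the highest level of the 37 genes was the highest for microglia markers in 0 groups and the lowest in 3, and for activated microglia genes the highest in 1 and the lowest in 3. The library with the lowest level was the lowest for microglia markers in 0 groups and the highest in 2, and for activated microglia genes the lowest in 3 and the highest in 1. With 4 to 6 libraries a group, these counts are a description. The microglia level was itself higher with the CSB genotype, with a mean of 8.79 in CSB and DKO and 8.41 in WT and INDY. A fit with that level as a covariate therefore cannot separate genotype from microglia, and the part of microglia in the result was not tested.

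Other cell types were read in the same way. Of 15 endothelial markers 0 were called (median -0.01, levels of 8.55 to 9.05 in CSB and DKO and 8.56 to 9.03 in WT and INDY, none at 0). Of 11 astrocyte and Bergmann glia markers 1 rose, Gfap (0.71). Of 15 markers of T, B and NK cells 4 were tested and 0 called, and 11 of them, Cd3e and Gzmb among them, were at 0 in at least 1 library. Of 8 tested neutrophil and monocyte genes 0 were called (median -0.83). Their level in WT KD had a mean of 5.44 (SD 3.70) and ran from 2.19 in WT KD 25 to 9.53 in WT KD 12. Means of the other groups ran from 2.92 to 4.10. Choroid plexus (0 of 15 called, median 0.22, levels of 5.58 to 9.88 and 5.14 to 9.52) and liver transcripts (0 of 20, median 0.64, levels of 1.90 to 9.25 and 1.99 to 8.81) varied widely within groups. For meninges (0 of 11, median -0.26), erythroid (0 of 7, -0.10), forebrain (0 of 18, 0.11), granule cell (0 of 11, -0.09) and Purkinje cell genes (0 of 11, -0.11) limma called none. Within groups the erythroid level often followed that of the 37 genes. The same library was highest for both in DKO SD (35), CSB SD (26), WT KD (12), DKO KD (3) and WT SD (41). The lowest was shared in INDY KD (45), DKO SD (1), WT SD (39), DKO KD (47), INDY SD (14) and WT KD (28). Elsewhere the extremes differed, and CSB KD 19 was lowest for the 37 genes but highest for erythroid genes. Whether blood in the tissue bears on this was not tested. With covariates for forebrain and liver 3 of the 37 were called, beside 141 of all genes, and the median was 0.20. These 3 were Lgals3bp, Bst2 and Irf9 (adjusted p = 0.0298 in limma), and Ifi27l2a was not called. With the choroid plexus level Lgals3bp, Bst2 and Ifi27l2a were called, beside 169 of all genes, and the median was 0.22. Without the 12 libraries of forebrain level above 7, 3 of the 37 and 727 of all genes (3.40%) were called, with a median of 0.29. Without the 21 above 6.5 the counts were 1 and 475 (2.22%), and the median was 0.20. Without WT KD 25, 2 were called, beside 182 of all genes, with a median of 0.23. Beyond these covariates, the part of other cell types in the result was not tested.

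Levels per kilobase of exon differed widely among the genes. Over all libraries the mean value per kilobase was highest for Ifi27 (401), Ifit3 (345), Ifitm3 (242), Cmpk2 (156) and Lgals3bp (152), and lowest for Zbp1 (2.42) and Oas3 (2.86). Several values are uncertain because reads may be shared. Ifit3, Isg15, Oas1a, Mx2, Sp100, Trim30a and Herc6 each had a copy elsewhere of at least 95% identity over at least 300 aligned bases, such as Ifit3b at 97.8% and Oas1g at 97.5%. Exons of 12 of the genes overlapped those of another annotated gene, 7 on the other strand and 5 on the same strand, Irf9 with Rnf31 and Rtp4 with Gm45338 among the latter. Lgals3bp, Bst2 and Ifi27l2a had neither a near copy by this measure nor such an overlap.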

How the data were processed

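Total RNA of cerebellum, depleted of ribosomal RNA per the labels, was sequenced in 40 libraries. The deposited table holds 1 signal per gene and library, which the authors estimated as read counts and normalised. Bowtie2, Salmon, DESeq2 and the build mm9 are named, without versions, in the submitters' processing notes. Raw counts could not be recovered: 26.6% to 54.5% of low values per library lay within 0.02 of a whole step. Depth and counting intervals are therefore not given.

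After adding 1 and taking log2, the 8 groups entered 1 fit of limma 3.58.1 (R 4.3.3, trend and robust) without a covariate. Genes reaching 10 in 4 or more libraries entered the test, and two-sided p-values were adjusted by Benjamini-Hochberg over all 21367. Called means an adjusted p under 0.05. Differences are on the log2(value + 1) scale, which understates changes of low genes. Symbols and gene positions are from GENCODE M21 on GRCm38, which differs from the build of the notes, so gene positions are those of the annotation. Promoter windows and distances to a gene's start are those of RefSeq on GRCm38.p6, whose starts can differ from GENCODE. The 37 genes, the other gene lists and the comparisons were chosen with earlier results of these data known. Values by library are given for genes called in an averaged comparison, filled up to 8 by the smallest p in the CSB average (Lgals3bp, Bst2, Ifi27l2a, Irf9, Ifi27, Rtp4, Gbp3 and Lgals9), and called genes of other lists are named, up to 5 by p. Ifit3 and Oas3 were added after their values were seen, as were other genes given without values by library.

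Alternatives were pseudocounts of 0.5 and 5, no filter, rescaling by the median ratio, no trend or robust variances, forebrain and liver or microglia levels as covariates, leaving out libraries with a forebrain level above 6.5, fits of only the groups compared and leaving out each library. A choroid plexus covariate and a forebrain limit of 7 were chosen after seeing the data. The fit was tested on simulated data: for the CSB average over 21367 genes it called 71 of 100 genes changed 1.5-fold and 94 of 100 changed 2-fold, with 13 unchanged genes called. Tables and figures used Python 3.11.15, pandas 2.3.3 and matplotlib 3.10.9.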

Additional observations from a re-analysis of the deposited data

Results flagged for a closer look

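Of 80 groups of values tested for a single library far from the others, 1 stood out, where chance marks about 1 in 20. Oas3 in CSB SD 6 read 3.91 on the log2(value + 1) scale, under the other 5 libraries of CSB SD at 4.34 to 4.51, with a gap of 0.727 of the whole range. CSB SD 6 lay above its group mean for 28 of the 37 genes.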

How the results depend on the processing

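Over 19 comparisons and all alternatives, 522 of 551 counts of called genes and 542 of 551 medians kept within 1.5 times the count or 1 SD of the mean level (0.278); 14 comparisons had 0 of the 37 called in every alternative. Leaving out 1 library moved the count between 1 and 10 in the CSB average, beside 120 to 1378 of all genes called. In DKO against WT on SD it moved between 0 and 2. In DKO against WT on KD it went from 0 to 1 (Oas3, lower) without WT KD 25. Without libraries of forebrain level above 6.5 the CSB average called 1, DKO against WT on SD 0 and DKO against INDY on KD 1, and medians were -0.263 in DKO against INDY on SD, 0.394 in INDY against WT on SD, -0.262 for diet in WT, -0.663 for diet in INDY and 0.459 for CSB by diet. Above 7, CSB against WT on SD called 1 and DKO against WT on SD 0, and medians were 0.596 in CSB against WT on KD, 0.276 in INDY against WT on KD, -0.262 for diet in WT and 0.27 for CSB by diet. Fitting only the groups compared called 1 in CSB against WT on SD and 0 in DKO against WT on SD. DKO against WT on SD also called 0 without a filter, with the forebrain and liver levels and with the microglia level, and 2 with the choroid plexus level. The forebrain limits leave 1 library in WT KD at either limit, and at 6.5 also in CSB KD and DKO SD, so these medians say little of the groups; the cause of the other moves was not tested. No paired analysis was possible because each library number is used once, so groups share none. The unknown depth limits what can be said of low genes such as Zbp1 and Oas3.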
